A study of Mus musculus with 16 samples.

Results

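CD11b, encoded by Itgam, is the alpha chain of the integrin Mac-1 (complement receptor 3), and ADH-503 is an agonist that binds it. Described here are the transcripts of that integrin and its circle: Itgam, its partner chain Itgb2, the sister alpha chains Itgal, Itgax and Itgad, the ligands Icam1 and Icam2, and the activators Fermt3, Tln1 and Rap1a. Members were every array probe that carries 1 of these 10 symbols, which gave 22 probes of the 56605 on the array, and 10 symbols of the 27308 in the deposited table. The rule uses no measured value, and all 22 passed the filter on dim probes, as did 46089 probes in all.

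The study profiled tumours of an orthotopic pancreatic cancer model, grown in the pancreas of female C57BL/6 mice, on 1-colour Agilent arrays. ADH 503 is the treatment named for 5 tumours labelled 48 h and for 5 labelled 10 days, and 6 vehicle tumours are the controls for both. The titles name the compound LA1, taken here to be ADH-503. The vehicle tumours carry no time, and neither the tumour cells implanted nor the ages of the animals were given in the labels used here. Whether the samples are separate animals is not in the labels, so the spread behind each p-value is that between samples and may hold technical variation. Vehicle replicate 2 and 48 h replicate 5 carry the same ID number in their titles, but the description of that vehicle sample holds another number, so whether they are 1 animal is not settled.

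The arrays lay on 2 slides. Slide 1 held 4 of the 48 h arrays, 3 of the 10 day arrays and 1 vehicle array, and slide 2 held 1, 2 and 5. Between 74.9% and 81.2% of probes were well above background on an array, and no spot was saturated. Levels are log2 signal relative to each array's 75th percentile, so 0 is the signal at that percentile; levels of different probes are not compared as amounts of RNA. After a level, ± gives the SD over a group's arrays, and after a difference, its standard error. All 12 acinar, all 10 ductal and tumour epithelial and all 15 macrophage markers were well above background on enough arrays to be tested. So were 46089 of all 56605 probes, so this does not identify the tissue.

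A beta2 integrin is a pair of an alpha chain and the shared beta chain CD18, and it sits on the surface of leukocytes in a bent, weakly binding form until it is switched on. The switch from inside the cell runs from the small GTPase Rap1 to talin and kindlin-3, which bind the tail of CD18. Switched on, the integrin holds to ICAM molecules on other cells and, for Mac-1, also to complement fragments and fibrinogen. CD11b is carried by macrophages, monocytes and neutrophils, which are abundant in pancreatic tumours. An agonist acts on the protein's shape, and the arrays measured only RNA.

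Itgam was read by 2 probes that see very different sequence. Probe 2 (mm9, chr7:135212140-135212199, plus strand, designed on NM_008401) is of mixed base composition, while probe 1 (chr7:135261755-135261814, plus strand, designed on NM_001082960), the brighter of the pair, begins with 10 CA units in a row. They are shown because the correlations of Itgam across tumours differ by probe. The first line is the whole of probe 2, and the other lines are stretches of 30 bases with the CA or GT run in capitals. The stretches are bases 1 to 30 of Itgam probe 1 and parts of the probes that moved most like it and are shown for their runs: Snap23 (chr2:120425750-120425809), Hexim2 (chr11:103001094-103001153) and Luc7l2 (chr6:38559052-38559111), all on the plus strand.
Itgam probe 2: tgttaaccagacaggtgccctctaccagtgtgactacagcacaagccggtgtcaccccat
Itgam probe 1: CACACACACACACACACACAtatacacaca
Snap23: CACACACACACACACACACACAtgaaatag
Hexim2: CACACACACACACACACACAtgtatgtaca
Luc7l2: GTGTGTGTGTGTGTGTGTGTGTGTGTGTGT

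No member probe passed the test in any comparison. Of the 46089 probes tested, limma called 0% at an adjusted p under 0.05 in each comparison, and 0 of the 22 member probes were among them. At an unadjusted p under 0.05, 2.53% of all probes were below the mark at 48 h, 3.56% at 10 days and 3.51% in 10 days against 48 h, and again 0 of the 22 members in each. The lowest member p was 0.159 at 48 h, 0.0668 at 10 days and 0.0604 between the times, before adjustment in limma's fit. The samples of the groups overlapped for all 22 probes in all 3 comparisons. At 48 h 9 member probes were higher than vehicle and 13 lower, with a median log2 difference of -0.03, against -0.01 over all probes tested. At 10 days the counts were also 9 and 13, with a median of -0.02, against -0.01 over all probes. In 10 days against 48 h 5 were higher and 17 lower, with a median of -0.07, against 0.00 over all probes. These are not 22 independent readings, since probes of 1 gene share its RNA.

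The precision was enough to bound most of these differences. The 95% interval of the difference lay within 1 log2 unit of 0 for 19 of 22 probes at 48 h, for 17 at 10 days and for 17 between the times. In bulk tumour RNA, fewer cells of a type and less RNA per cell cannot be told apart. Slide and group overlap heavily, and many signs differed within single slides. Within slide 1, 17 of the 22 differences at 48 h had the opposite sign to the value from all arrays, and within slide 2, 6 had. At 10 days 8 and 7 were opposite within slides 1 and 2, and with slide as a block 4 were opposite at 48 h and 1 at 10 days. Within-slide values rest on 1 vehicle array on slide 1 and on 1 array of 48 h on slide 2.

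**Figure D1:**
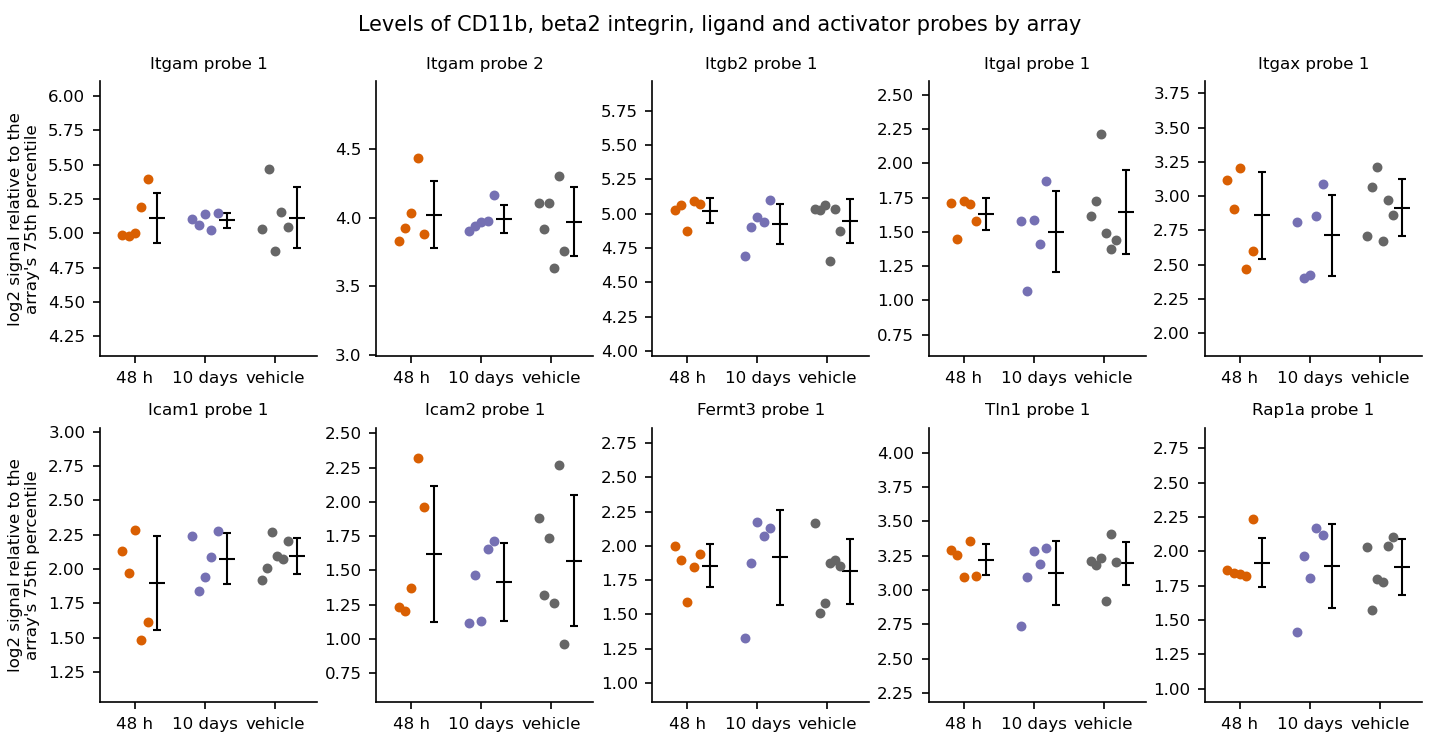
Log2 level, relative to the array's 75th percentile, of the brightest probe of 9 member genes and of Itgam probe 2 in each array, by group (48 h, 10 days, vehicle); points are arrays, bars are mean and SD, and all panels cover the same width of the log2 scale. The groups overlap in every panel, and Itgb2 runs only from 4.65 to 5.10.

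Itgam, by probe 2, the probe without the run, read close levels in treated and vehicle tumours. Probe 2 read 3.83, 3.93, 4.03, 4.44 and 3.88 at 48 h (mean 4.02 ± 0.24 SD, n = 5). It read 3.91, 3.94, 3.97, 3.97 and 4.16 at 10 days (mean 3.99 ± 0.10 SD, n = 5). In vehicle tumours its lowest, median and highest values were 3.64, 4.01 and 4.31 (mean 3.97 ± 0.25 SD, n = 6). All 10 treated values but the highest, 48 h replicate 4, lay within the vehicle range. The log2 difference from vehicle was 0.05 ± 0.14 (SE) at 48 h, with a 95% interval of -0.24 to 0.34, and 0.02 ± 0.14 at 10 days, with an interval of -0.28 to 0.31. In 10 days against 48 h it was -0.03 ± 0.14. Each had an adjusted p of 1.0 in limma with Benjamini-Hochberg adjustment. Within slides 1 and 2 the difference was -0.05 and -0.07 at 48 h, and -0.17 and 0.12 at 10 days.

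Itgam probe 1 also read close levels in the 3 groups. It read 4.98, 4.98, 5.0, 5.19 and 5.39 at 48 h, then 5.11, 5.06, 5.14, 5.02 and 5.15 at 10 days. Vehicle arrays ran from 4.87 to 5.47 with a median of 5.04, over 5 of 6 arrays, since the scanner had marked its spot on vehicle replicate 3 as an outlier and the fit leaves that value out. The log2 difference from vehicle was -0.00 ± 0.12 at 48 h and -0.02 ± 0.12 at 10 days (adjusted p = 1.0 for both, limma). Within slides 1 and 2 it was 0.01 and 0.26 at 48 h, and 0.07 and -0.05 at 10 days. The highest values were those of vehicle replicate 2 and 48 h replicate 5, whose titles share an ID number.

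The 2 Itgam probes correlated weakly with each other across tumours, and probe 1 correlated closely with other probes that hold such a run. Their deviations from group means correlated at r = 0.27 and rho = 0.41 over 15 arrays (permutation p = 0.333 and 0.133, adjusted p = 0.435 and 0.226 over 17 pairs of probes of 1 gene). Without the 2 arrays farthest from the median r was 0.23, and within slides 1 and 2 it was 0.58 and 0.24. On the array 42 probes hold at least 8 CA units in a row, and Itgam probe 1 is the only member among them. The log2 signal of the other 41 had a median of 4.90 and quartiles of 4.71 and 5.12, against a median of -2.42 and quartiles of -5.23 and -0.02 over all 56605 probes. The 71 probes with at least 8 GT units had a median of 5.48.

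All 5 genes whose probes tracked Itgam probe 1 most closely over 15 arrays carried a run of CA units or, for Luc7l2, of GT units. They were Snap23 at r = 0.93 with a run of 11 units, Hexim2 at 0.92 with 10, Zfp663 at 0.91 with 16, Oacyl at 0.91 with 13 and Luc7l2 at 0.91 with 16, out of 30411 probes searched. Over the 40 other CA probes with a value to correlate, the median r with Itgam probe 1 was 0.84, against 0.04 over 38502 probes well above background. With Itgam probe 2 the median over CA probes was 0.10, and with Itgb2 it was 0.29. These correlations across probes used levels without subtraction of group means. They share the same arrays and the same scaling, and are a description.

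The deviations of Itgam probe 1 from its group means were also set against the mean of the other 41 CA probes, a relation chosen after these values were seen. They correlated at r = 0.91 and rho = 0.76 over 15 arrays (permutation p = 4e-05 and 0.00147, adjusted p = 0.00012 and 0.00441 over 3 relations). Without the 2 farthest arrays r was 0.73, and within slides 1 and 2 it was 0.53 and 0.98. Those 2 arrays were vehicle replicate 2 and 48 h replicate 5, with the highest means of the CA probes (4.98 and 4.94). Their titles share an ID number, and if they are 1 animal, the p-values count it as 2. Probe 2 gave r = 0.12 (adjusted p = 0.667) and Itgb2 r = 0.34 (adjusted p = 0.301) in the same permutation test. Under quantile normalization the relation of probe 1 was r = 0.62 with rho = 0.24, and in the authors' deposited quantile table r = 0.52 with rho = 0.20, where it no longer passed (adjusted permutation p = 0.0657). Under both scalings the other signs turned, with r = -0.52 and -0.51 for probe 2 and -0.39 and -0.37 for Itgb2. How much of probe 1's signal comes from the run and how much from Itgam was not tested.

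**Figure D2:**
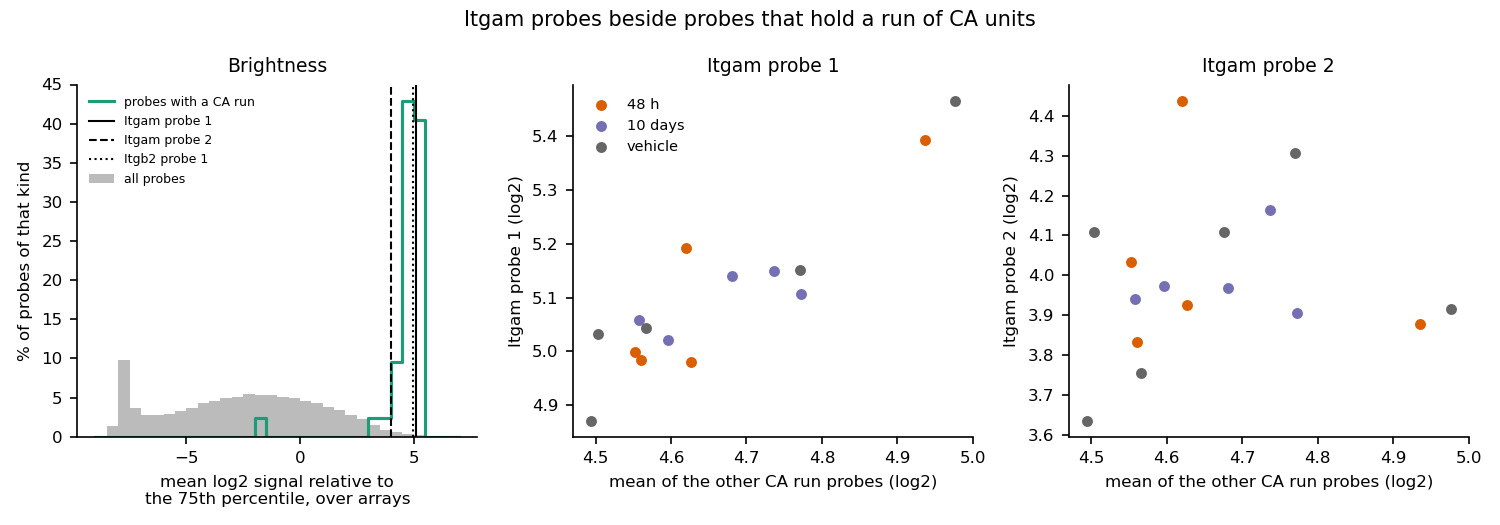
Signal of probes with a CA run of at least 8 units against all probes (share of probes per log2 bin), and the level of each Itgam probe against the mean of the other 41 CA probes in each array, by group (log2 units). Vertical lines mark the mean signal of the Itgam and Itgb2 probes. Itgam probe 1 follows the mean of the CA probes at r = 0.91 in deviations from group means, and probe 2 at r = 0.12. Under quantile normalization probe 1 gave r = 0.62 and rho = 0.24.

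Among the genes nearest to Itgam probe 2, chosen after the repeat was seen, were Nfe2 at r = 0.88 over 16 arrays, Gpsm3 at 0.85, Wdr86 at 0.85, Arhgdib at 0.85 and Chd8 at 0.84. Nfe2 encodes a transcription factor of blood cells. Arhgdib is also in the list of signalling genes downstream of the integrin used below.

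Itgb2, which encodes CD18, was read by a bright probe that varied little between tumours, as did other bright member probes. Its probe (chr10:77027978-77028037, plus strand) read 5.02, 5.06, 4.87, 5.10 and 5.07 at 48 h (mean 5.02 ± 0.09 SD, n = 5). It read 4.69, 4.91, 4.98, 4.94 and 5.10 at 10 days (mean 4.92 ± 0.15 SD, n = 5). Vehicle arrays had a lowest value of 4.65, a median of 5.03 and a highest of 5.06 (mean 4.95 ± 0.16 SD, n = 6). The groups overlapped, and from the lowest to the highest of all 16 arrays the signal differed 1.36-fold. The SD over all arrays was 0.13, and 3.30% of tested probes, of any brightness, had a lower one. The median over tested probes was 0.34. By mean signal Itgb2 stood above 99.6% of all probes. The other brightest member probes also had SDs below that median. These were 0.16 and 0.20 for Itgam probes 1 and 2, and 0.17 and 0.14 for Tln1 probes 1 and 2. The spread of Itgb2 was not tested against that of probes of like brightness. The log2 difference from vehicle was 0.08 ± 0.10 at 48 h (95% interval -0.15 to 0.30) and -0.02 ± 0.10 at 10 days (interval -0.25 to 0.20), each with an adjusted p of 1.0 in limma. Within slides 1 and 2 it was -0.02 and 0.14 at 48 h, and -0.17 and 0.09 at 10 days. In 10 days against 48 h it was -0.10 ± 0.11.

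The genes most like Itgb2 over 16 arrays were H2-DMa at r = 0.91, Actg1 at 0.90, Rnpep at 0.88, Irf5 at 0.88 and Rab1b at 0.88, of 30412 probes searched. H2-DMa loads peptides onto class II molecules in antigen-presenting cells, Actg1 is a cytoplasmic actin and Irf5 an interferon regulatory factor of myeloid cells. Of 72 relations of 6 member probes to 12 cell type lists, 1 passed, by r but not by rho. The level of Itgb2 and the mean of 9 dendritic cell markers correlated at r = 0.77 (permutation, adjusted p = 0.0302 over 72). Its rho was 0.64 at an adjusted permutation p of 0.329. The permutations did not allow for the group means subtracted, so their p-values may be too small, and this pass is not firm. Without the 2 farthest arrays r was 0.57, and within slides 1 and 2 it was 0.93 and 0.66. With the macrophage list r was 0.57 and with the neutrophil list -0.57 (adjusted p = 0.181 for both in the same permutation test).

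Cells that carry CD11b were present in every group. The macrophage markers were higher than vehicle in 14 of 15 at 48 h, with a median log2 difference of 0.14, and in 14 of 15 at 10 days, with a median of 0.07, and 0 had an unadjusted p under 0.05 in limma. Their mean level ran from 3.73 to 3.80 at 48 h, from 3.64 to 3.83 at 10 days and from 3.47 to 3.76 in vehicle tumours. The neutrophil markers were higher in 4 and lower in 10 of 14 at 48 h, with a median of -0.25, and lower in all 14 at 10 days, with a median of -0.52. Of the 14 neutrophil markers 1 and then 3 had an unadjusted p under 0.05 in limma, against 2.53% and 3.56% of all probes. Among them was Ltf at -2.0 ± 0.54 at 10 days, a granule protein of neutrophils, and 0 passed after adjustment. Their mean level ran from -1.21 to 0.15 at 48 h, from -1.65 to -0.43 at 10 days and from -0.87 to 0.16 in vehicle tumours. Of 8 monocyte markers 7 were higher at 48 h and 2 at 10 days, with medians of 0.05 and -0.03. Without vehicle replicate 3, the array with the highest Itgad, 4 and 1 monocyte markers were higher. Without that array 12 of 15 macrophage markers were higher and 12 of 14 neutrophil markers lower, at each time. The counts for these lists and the other lists below use all arrays and were not taken within slides, though slide and group overlap heavily. The part of these lists in the levels of Itgam and Itgb2 was not tested.

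**Figure D3:**
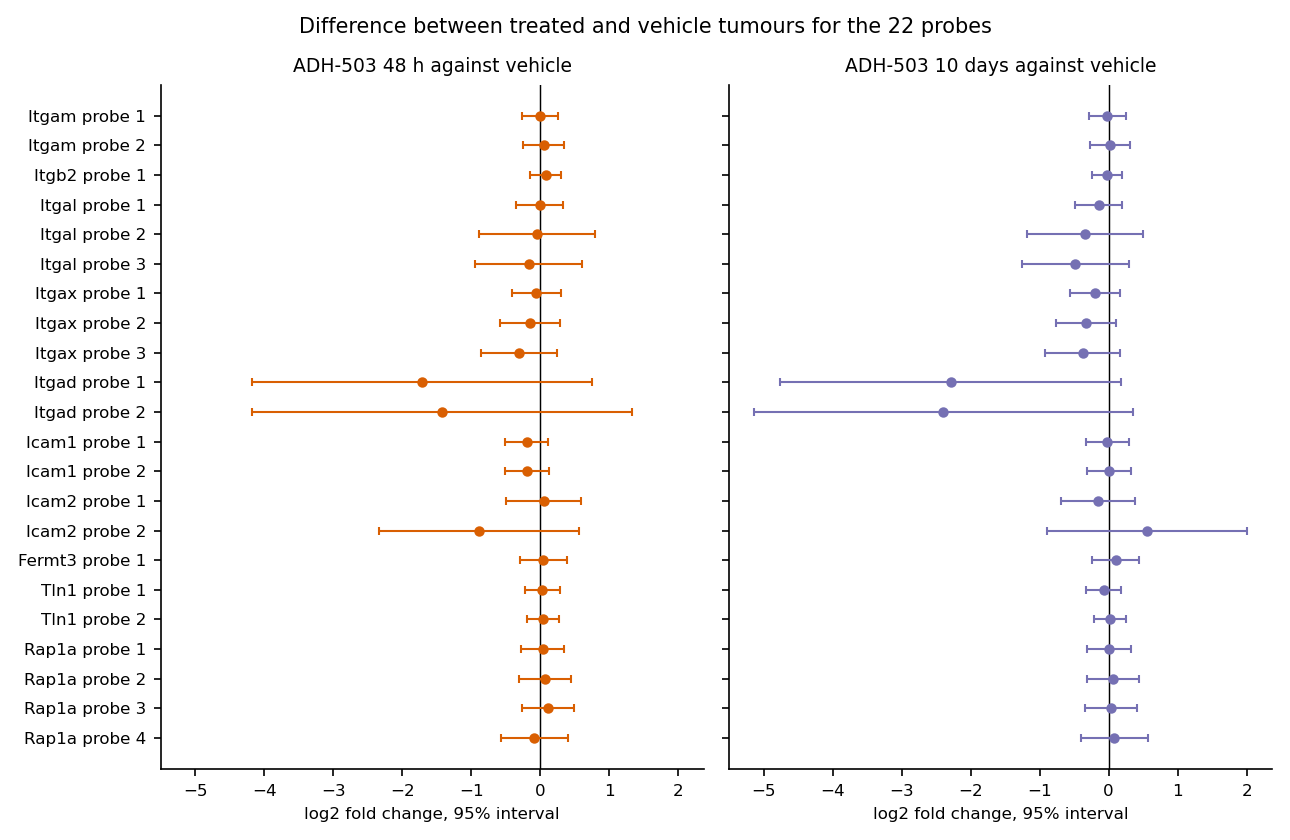
Log2 difference of each member probe at 48 h and at 10 days against vehicle, with 95% intervals from limma, on a shared axis. Every interval includes 0, and those of Itgad and of Icam2 probe 2 are the widest. Icam2 probe 2 was not well above background on any 48 h array, so its fitted value there is not a measured level.

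Itgal encodes CD11a, the alpha chain of LFA-1 on lymphocytes and other leukocytes. Its brightest probe (chr7:134477160-134477219, plus strand) averaged 1.63 ± 0.12 at 48 h, 1.5 ± 0.29 at 10 days and 1.64 ± 0.31 in vehicle tumours (SD, n = 5, 5 and 6). Vehicle replicate 3, at 2.22, was the highest of the 16 arrays. The differences from vehicle were -0.01 ± 0.16 at 48 h and -0.14 ± 0.16 at 10 days. Probes 2 and 3, designed on AK154115, share a stretch of 56 of their 60 bases and so are almost 1 reading. They gave -0.05 ± 0.39 and -0.17 ± 0.36 at 48 h, and -0.34 ± 0.39 and -0.48 ± 0.36 at 10 days, and correlated with each other at r = 0.53 (adjusted p = 0.0843, permutation). With probe 1 they correlated at r = -0.09 and 0.31.

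Itgax encodes CD11c, carried by dendritic cells and many tissue macrophages. Probe 1 (chr7:135294052-135294111) read 2.86 ± 0.32 at 48 h, 2.72 ± 0.30 at 10 days and 2.92 ± 0.21 in vehicle tumours. Probe 2 (chr7:135284029-135284088) read 2.40 ± 0.36, 2.22 ± 0.43 and 2.55 ± 0.24 in the same order of groups, and both had their highest value in vehicle replicate 3. These probes moved together over the arrays, with r = 0.86 (permutation, adjusted p = 0.00017). The 3 Itgax probes had log2 differences from vehicle of -0.06 ± 0.17, -0.15 ± 0.20 and -0.31 ± 0.26 at 48 h. At 10 days the differences were -0.20 ± 0.17, -0.33 ± 0.20 and -0.38 ± 0.26, and all had adjusted p = 1.0 in limma. Within slide 1 probes 1 and 2 gave 0.22 and 0.14 at 48 h and -0.16 and -0.37 at 10 days. Within slide 2 they gave -0.36 and -0.40 at 48 h and 0.01 and 0.04 at 10 days.

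Itgad encodes CD11d, known in mice from the red pulp macrophages of the spleen. Its log2 signal varied more between single tumours than that of almost all tested probes, of any brightness. Its 2 probes lie in 1 stretch of chromosome 7 (mm9, chr7:135348577-135348636 and chr7:135348901-135348960, plus strand) and agreed at r = 0.95 (rho = 0.88, adjusted permutation p = 8.5e-05, within slides 0.94 and 0.95). Probe 1 is shown because the most variable reading among the members rests on it, and it holds no CA or GT run.
Itgad probe 1: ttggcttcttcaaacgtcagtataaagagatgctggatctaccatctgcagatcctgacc

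Probe 1 of Itgad read -1.47, -1.79, -1.52, -5.93 and -6.26 at 48 h. It read -2.88, -5.06, -4.65, -4.97 and -2.28 at 10 days. The 6 vehicle tumours read -3.40, -3.54, 1.84, -0.06, -1.79 and -3.13. Vehicle replicate 3 stood highest and 48 h replicates 4 and 5 lowest, and the groups overlapped. Probe 2 read -2.09, -2.08, -0.78, -5.56 and -5.59 at 48 h and -2.18, -5.86, -4.08, -6.91 and -1.92 at 10 days. In vehicle tumours probe 2 read -3.84, -3.55, 2.02, -0.14, -1.43 and -3.83, with replicate 3 again highest.

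Probe 1 was well above background on 3 of 5 arrays at 48 h, on all 5 at 10 days and on all 6 vehicle arrays; for probe 2 the numbers were 4 of 5, 3 of 5 and 6 of 6. Vehicle replicate 3 had 119 times the signal of the lowest array well above background by probe 1 and 194 times by probe 2. The SD over arrays was 2.17 and 2.36, above that of 99.8% and 99.9% of tested probes, of any brightness. These SDs take in the arrays on which the probes were dim. The spread of Itgad was not tested against that of probes of like brightness. Against vehicle, probe 1 differed by -1.71 ± 1.16 at 48 h and -2.29 ± 1.16 at 10 days, and probe 2 by -1.42 ± 1.29 and -2.40 ± 1.29 (unadjusted p = 0.159, 0.0668, 0.287 and 0.0827, all adjusted p = 1.0 in limma). The 95% intervals of probe 1 ran from -4.18 to 0.75 and from -4.76 to 0.18. Without vehicle replicate 3 the differences were -1.01 and -1.58 for probe 1, and -0.66 and -1.63 for probe 2. Within slide 1, which holds 1 vehicle array, they were 0.72 and -0.80 for probe 1 and 1.21 and -0.20 for probe 2. Within slide 2, which holds 1 array of 48 h, they were -4.92 and -2.29, and -4.20 and -3.03. That array, 48 h replicate 5, was not well above background by probe 1, so -4.92 is not a measured size.

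The transcript most like Itgad was 4931431B13Rik, a long noncoding RNA whose span lies inside that of Itgad in RefSeq (GRCm38.p6, used for names and order only). Over 16 arrays it correlated with Itgad probe 1 at r = 0.95 and with probe 2 at r = 0.92, the highest among 32809 probes well above background on at least 13 arrays. Its probe is on the minus strand (mm9, chr7:135335605-135335664) and the Itgad probes are on the plus strand, so they read opposite strands of 1 locus; whether the labelling keeps the strand is not given in the sources used here, and signal of the 2 genes cannot be told apart if it does not. It was well above background on all 16 arrays. It read -2.60, -2.36, -2.14, -4.86 and -4.86 at 48 h and -3.23, -4.81, -4.90, -4.23 and -2.16 at 10 days. Vehicle tumours read -3.31, -2.97, 1.17, -0.67, -2.29 and -4.47, so replicate 3 was highest here too. Its other probe correlated with Itgad probe 1 at r = 0.79. In the order of genes on chromosome 7, Itgal, Itgam, Itgax and Itgad follow each other, and Itgam and Itgax did not share this spread: over all 16 arrays Itgam probe 2 covered 1.74-fold and Itgax probe 1 covered 1.75-fold. Itgam probe 1 has no value on vehicle replicate 3.

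Next in likeness to Itgad probe 1 were the potassium channel Kcnj10 at r = 0.88, Skil at 0.84, the NF-kappaB inhibitor Nfkbie at 0.83 and Stab2 at 0.82. Next to probe 2 were Nfkbie at 0.85, Dcstamp at 0.84, Slc45a3 at 0.83 and Kel at 0.82. Stab2 is a scavenger receptor of sinusoidal endothelium, Dcstamp a fusion protein of osteoclasts and macrophages, and Kel a red cell surface antigen. The likeness of Itgad was added after its spread was seen.

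Vehicle replicate 3, the tumour with the highest Itgad, was also the highest of the 16 in the mean of the erythroid markers and in Spic. The erythroid list was lower than vehicle in all 8 markers at both times, with median log2 differences of -1.25 and -1.5, and 4 of 8 had an unadjusted p under 0.05 at each time in limma. Without vehicle replicate 3 the medians were -0.75 and -0.94, and all 8 were still lower at both times. Its mean level ran from -4.36 to -1.88 at 48 h, from -4.25 to -2.81 at 10 days and from -3.32 to 0.42 in vehicle tumours, and all 8 markers were tested. Deviations of Itgad probe 1 and of the erythroid mean correlated at r = 0.68 and rho = 0.69 (permutation p = 0.00309, adjusted p = 0.111 over 72 relations), within slides at 0.64 and 0.80, and without the 2 farthest arrays at 0.46. Vehicle replicate 3 read 3.61 for Hba-a1 and 0.02 for Slc4a1, a red cell membrane protein. It read 2.69 for Spic, the transcription factor of red pulp macrophages, 2.88 for Vcam1, 2.52 for Treml4, 2.37 for Cd5l and 0.91 for Slc40a1, the iron exporter, and these 5 were highest on that array. The heme oxygenase Hmox1 read 2.65 there, below the 2.92 and 2.73 of 48 h replicates 3 and 4. The list of these 6 red pulp macrophage markers, chosen after this array was seen, correlated with Itgad probe 1 at r = 0.70 (within slides 0.41 and 0.86), with no test. Itgal probe 1 gave r = 0.66 with the same list (within slides 0.12 and 0.80) and Itgax probe 1 gave 0.42. The part of these cells in the levels of Itgad was not tested, and the erythroid counts were not taken within slides.

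**Figure D4:**
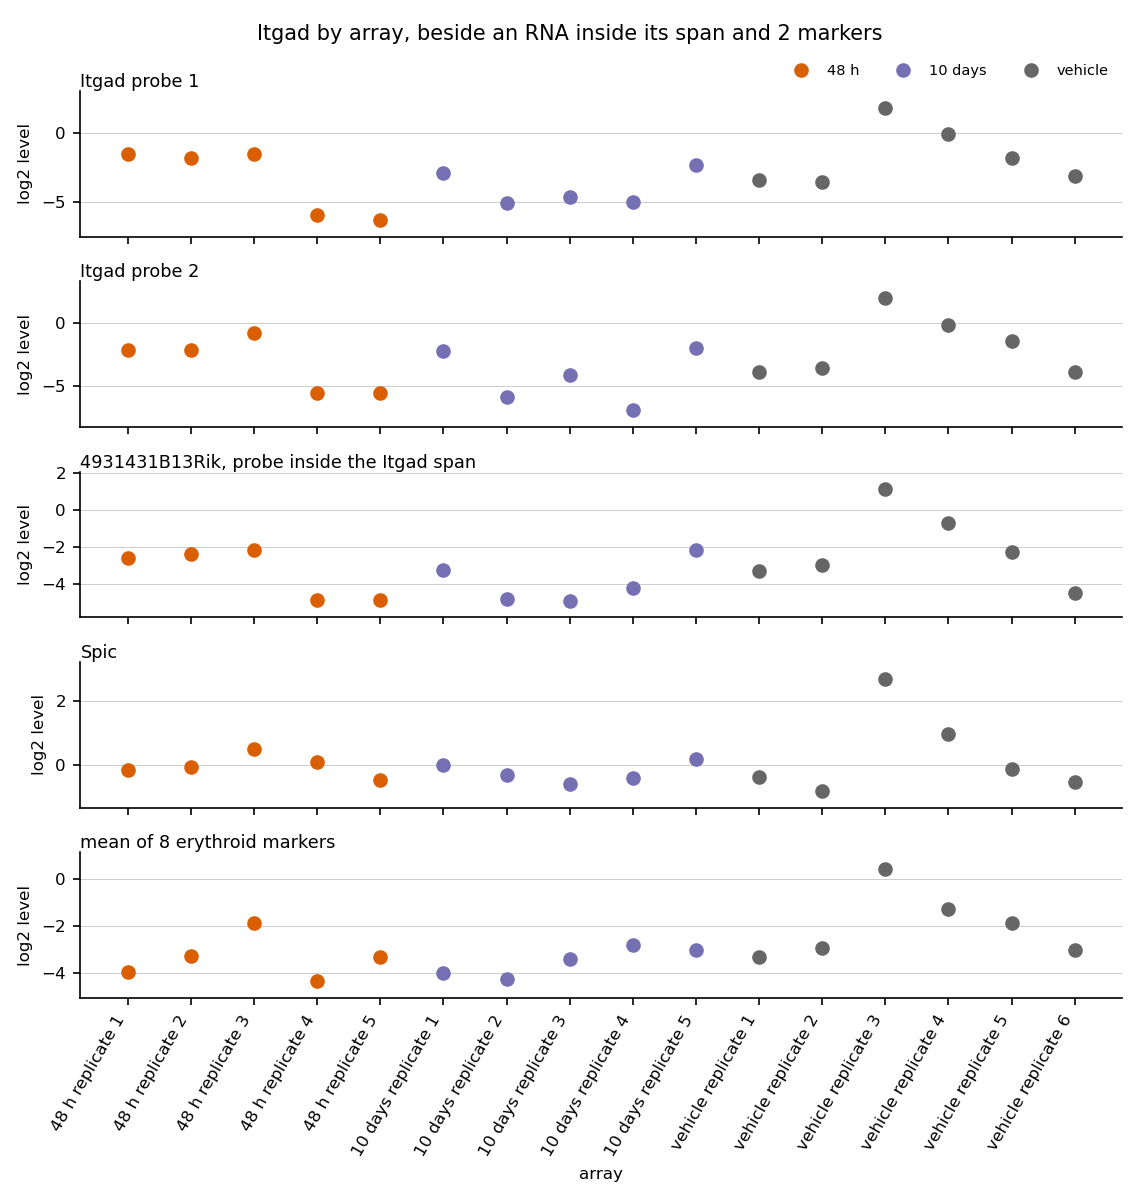
Log2 level in each of the 16 arrays of both Itgad probes, of 4931431B13Rik, of Spic and of the mean of 8 erythroid markers; colours are groups. Vehicle replicate 3 is the highest array in every panel, at 1.84 for Itgad probe 1 and 2.69 for Spic.

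Of the ligands, Icam1, which cytokines induce on endothelium and many other cells, was read by 2 probes (chr9:20833186-20833245 and chr9:20832290-20832349, plus strand). Probe 1 averaged 1.90 ± 0.34 at 48 h, 2.08 ± 0.19 at 10 days and 2.10 ± 0.13 in vehicle tumours. Probe 2 averaged 1.55 ± 0.35, 1.75 ± 0.13 and 1.75 ± 0.18. Both differed from vehicle by -0.20 ± 0.15 at 48 h, and by -0.02 ± 0.15 and 0.00 ± 0.15 at 10 days, with adjusted p = 1.0 in limma. In 10 days against 48 h the differences were 0.18 ± 0.15 and 0.20 ± 0.16. The probes correlated at r = 0.59 (adjusted permutation p = 0.0471). At 48 h the difference was 0.05 and 0.09 within slide 1 and -0.51 and -0.40 within slide 2. These rest on 1 vehicle array on slide 1 and 1 array of 48 h on slide 2. An effect of slide and the spread of single arrays cannot be told apart here.

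Icam2, carried by resting endothelium and leukocytes, averaged 1.62 ± 0.50 at 48 h, 1.42 ± 0.28 at 10 days and 1.57 ± 0.48 in vehicle tumours by probe 1 (chr11:106238971-106239030, minus strand). Its differences from vehicle were 0.05 ± 0.25 and -0.16 ± 0.25. Probe 2 (chr11:106242420-106242479, designed on ENSMUST00000106809) was well above background on 0 of 5 arrays at 48 h, on 3 of 5 at 10 days and on 2 of 6 vehicle arrays. Since it was dim on part of the arrays in every group, no fold is given for it. Between the times it had the lowest member p, 0.0604 unadjusted and 1.0 adjusted in limma, and at 48 h against vehicle its unadjusted p was 0.214. The 2 Icam2 probes correlated at r = -0.07 (adjusted permutation p = 0.788).

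The activators differed from vehicle by little at either time. Fermt3 encodes kindlin-3, the kindlin of blood cells, and its probe (chr19:7074257-7076292, minus strand) joins parts of the genome 2036 bases from end to end. It averaged 1.86 ± 0.16 at 48 h, 1.92 ± 0.35 at 10 days and 1.81 ± 0.24 in vehicle tumours, with differences of 0.04 ± 0.16 and 0.10 ± 0.16. Tln1 encodes talin-1, whose head binds the CD18 tail and whose rod binds actin. Probe 1 of Tln1 averaged 3.22 ± 0.12 at 48 h, 3.12 ± 0.23 at 10 days and 3.19 ± 0.16 in vehicle tumours, and probe 2 averaged 3.11 ± 0.14, 3.09 ± 0.16 and 3.07 ± 0.14. Their differences from vehicle lay between -0.07 and 0.04. Rap1a is 1 of the pair of Rap1 GTPases, and 3 of its 4 probes correlated with each other at r = 0.77 to 0.92, while probe 4 correlated with them at 0.14 to 0.38. The differences of the 4 Rap1a probes lay between -0.09 and 0.11 at 48 h and between 0.01 and 0.08 at 10 days, all with adjusted p = 1.0 in limma.

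Across tumours the correlation of Tln1 probe 1 with Itgb2 passed the permutation test by both r and rho. That of Icam2 probe 1 passed by rho alone. Probe 1 of Tln1 (chr4:43557201-43557260, minus strand), shown because the relation rests on it, has the sequence below.
Tln1 probe 1: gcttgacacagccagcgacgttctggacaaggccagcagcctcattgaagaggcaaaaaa

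Its deviations from group means correlated with those of Itgb2 at r = 0.84 and rho = 0.71 (permutation p = 0.00014 and 0.00331, adjusted p = 0.00126 and 0.0298 over 9 member genes). Without the 2 arrays farthest from the median of Itgb2 r was 0.61, and within slides 1 and 2 it was 0.91 and 0.80. In the authors' deposited table and with quantile normalization it passed by r (0.79 in both) but not by rho (0.61 and 0.60, adjusted permutation p = 0.0922 and 0.144). Of 38502 probes well above background, 0.0961% had an r with Itgb2 as high. Tln1 probe 2 correlated with probe 1 at r = 0.34 (adjusted permutation p = 0.309). The relation of Tln1 probe 2 to Itgb2 was not tested, so the result holds for probe 1 only. Icam2 probe 1 came next at r = 0.54 (adjusted p = 0.134) and rho = 0.64 (adjusted p = 0.0392), within slides at 0.45 and 0.59. Since the permutations did not allow for the group means subtracted, its pass by rho is not firm. In the authors' deposited table Icam2 gave r = 0.26 and rho = 0.17, and with quantile normalization r = 0.26 and rho = 0.15 (adjusted permutation p for rho = 0.915 and 0.858).

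The remaining 7 members did not pass the permutation test after adjustment, by r or by rho. Itgam probe 1 correlated with Itgb2 at r = 0.50 (adjusted p = 0.166) and rho = 0.57 (p = 0.03, adjusted p = 0.09; within slides for r 0.06 and 0.67), Fermt3 at 0.44 (0.193; within slides 0.92 and -0.11) and Rap1a at 0.42 (0.196; within slides 0.73 and 0.18). Itgal gave 0.31 (within slides -0.19 and 0.54), Itgax 0.11 (within slides -0.61 and 0.73), Itgad -0.22 (within slides -0.58 and 0.01) and Icam1 -0.28 (within slides -0.66 and 0.16). Itgam probe 2, used in place of probe 1 after the repeat was seen, correlated with Itgb2 at r = 0.61 and rho = 0.70 (permutation p = 0.0116 and 0.00372), within slides at 0.38 and 0.80 and without the 2 farthest arrays at 0.50.

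**Figure D5:**
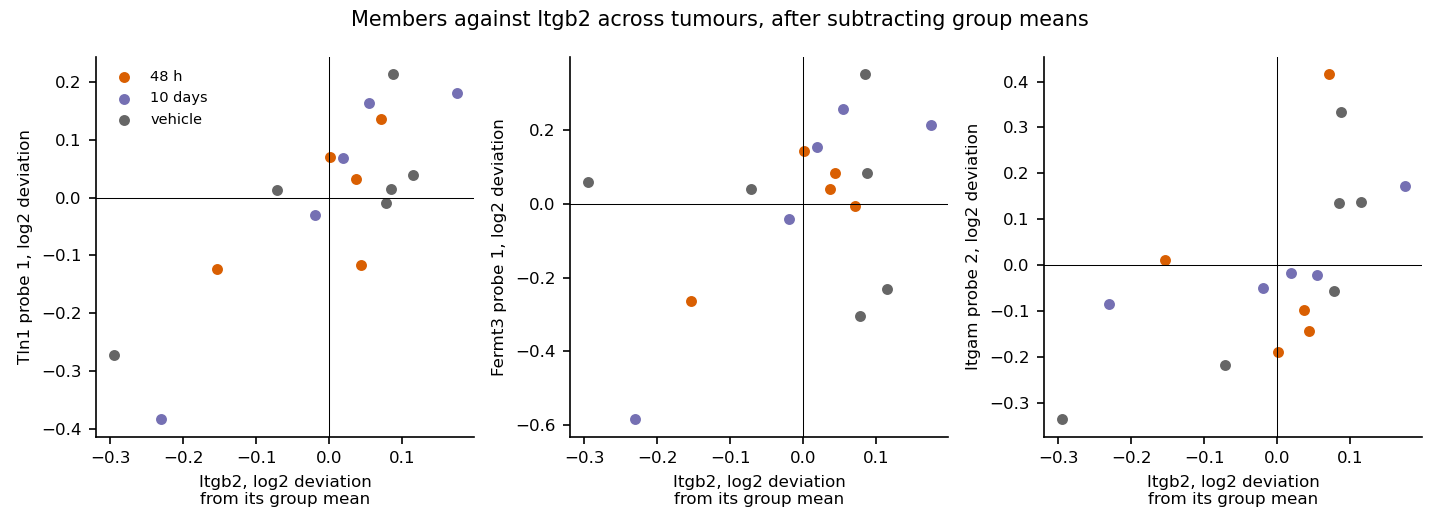
Log2 deviations from group means of Tln1 probe 1, Fermt3 probe 1 and Itgam probe 2 against those of Itgb2, by array and group. Tln1 probe 1 rises with Itgb2 at r = 0.84, Fermt3 probe 1 has an r of 0.44 and Itgam probe 2 of 0.61.

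No gene of the wider pathway lists passed the test after adjustment. Of 23 other genes that switch integrins on or restrain them from inside the cell, 11 were higher and 12 lower than vehicle at 48 h and 9 and 14 at 10 days, with medians of -0.03 and -0.02. None had an unadjusted p under 0.05 in limma, against 2.53% and 3.56% of all probes. The nearest at 48 h were Rapgef6, an exchange factor for Rap1, at 0.27 ± 0.13, Sharpin, an inhibitor of integrin activation, at 0.14 ± 0.10, and the adaptor Skap1 at 0.32 ± 0.27. At 10 days they were Fermt2, the kindlin of non-blood cells, at -0.93 ± 0.61, Sipa1, which turns Rap1 off, at 0.15 ± 0.10, and Rapgef6 at 0.17 ± 0.13.

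Of 26 genes that signal outside-in from a bound beta2 integrin, 13 were higher and 13 lower at each time, with medians of 0.01 and 0.00. At 48 h 1 had an unadjusted p under 0.05, the adaptor Crkl at 0.26 ± 0.11, which failed the adjustment (adjusted p = 1.0, limma). Pik3r5, a regulatory subunit of PI3-kinase gamma, stood at -0.28 ± 0.23 and the focal adhesion protein Pxn at -0.13 ± 0.12. At 10 days Rac2 of leukocytes stood at -0.11 ± 0.10, Coro1a at -0.11 ± 0.12 and Pik3r5 at -0.22 ± 0.23. In 10 days against 48 h 18 of the 26 were lower, with a median of -0.03.

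A list of 16 genes held other ligands of beta2 integrins and also Cdh5, a gene of endothelial junctions, and 15 of the 16 were tested. Of these 9 were higher and 6 lower at 48 h, with a median of 0.01. At 10 days 2 were higher and 13 lower, with a median of -0.22. Icam5, known from neurons, had the only unadjusted p under 0.05, at -1.60 ± 0.68 at 48 h (adjusted p = 1.0, limma). Cdh5 of endothelial junctions was at -0.82 ± 0.53 and Vtn, the plasma protein vitronectin, at 0.96 ± 0.75 at 48 h. At 10 days C3, the source of the complement fragment that Mac-1 binds, was at -0.22 ± 0.14, the fibrinogen chain Fgb at -0.70 ± 0.54 and the matrix protein Ccn1 at -1.17 ± 0.96. The ductal and tumour epithelial markers were also lower at 10 days in 10 of 10, with a median of -0.57, and 11 of 12 acinar markers were higher at 48 h, with a median of 0.98 and 7 at an unadjusted p under 0.05 (0 after adjustment). In 10 days against 48 h 11 of 12 acinar markers were lower, with a median of -1.08 and 10 at an unadjusted p under 0.05, and 0 passed after adjustment in limma. The endothelial markers were lower than vehicle in 9 of 9 tested at 48 h, with a median of -0.53 and 1 at an unadjusted p under 0.05, and in 8 of 9 at 10 days, with a median of -0.28. Their mean level ran from -3.52 to -2.88 at 48 h, from -3.72 to -2.45 at 10 days and from -3.40 to -1.77 in vehicle tumours. Without vehicle replicate 3 they were lower in 7 and 8 of 9. These counts were not taken within slides. The part of these cells in the levels of Cdh5, and of Icam1, Icam2 and the other ligands, was not tested.

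Of 18 other leukocyte integrins and adhesion partners tested, of 19 in the list, 7 were higher and 11 lower at 48 h and 6 and 12 at 10 days, with medians of -0.03 and -0.08, and none had an unadjusted p under 0.05 in limma. Itga1, a collagen receptor chain, was at -0.32 ± 0.20, the vessel addressin Madcam1 at -0.27 ± 0.16 and Itga2, another such chain, at -0.59 ± 0.77 at 48 h. At 10 days Cd44, a hyaluronan receptor, was at -0.17 ± 0.12, the shared beta1 chain Itgb1 at -0.20 ± 0.18 and Itgav at -0.17 ± 0.17.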

How the data were processed

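RNA was measured on 16 arrays of 1-colour Agilent mouse gene expression slides. Per the labels' protocols, cDNA was amplified with a whole-transcriptome kit and labelled with Cy5. Per the submitters' processing notes, Agilent Feature Extraction 11.5.1.1 quantified the scans. The deposited intensity values are processed signals, background-subtracted, detrended over the array surface, not scaled between arrays and with surrogate values where spots were dim; probe positions are on build mm9, per the file headers. The authors also deposited a table of quantile-normalized log2 values, used as an alternative.

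Of each array, 59305 spots were used and 3671 control spots were left out, giving 56605 probes. Log2 signals were averaged per probe without outlier spots, which removed 75 values among tested probes, and each array's 75th percentile was subtracted; its signal ran from 4953 to 6736. Probes well above background on at least 5 arrays entered a fit in limma 3.58.1 (R 4.3.3; lmFit on 3 groups, robust eBayes without trend, Benjamini-Hochberg over 46089 probes, threshold 0.05, 2-sided); the fit was tested on simulated data. The number of arrays limits the precision. Correlations given with a p-value used deviations from group means and 2-sided permutation tests with 100000 resamples, which can reach 1e-05. The resampling shuffled these deviations over all arrays and did not allow for the group means taken out, so its p-values may be too small. The genes most like a member probe, and the medians over single CA probes, came from levels without subtraction of group means. These had no test. Names came from RefSeq tables (GRCm38.p6): 32994 probes matched by accession and 10744 by symbol, and 12867 kept the file's name. Intron, exon and UTR positions were not looked up, since no annotation of build mm9 was used here.

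Groups came from the treatment and time labels; replicate numbers only name arrays. Every member probe is named, together with the 3 genes of smallest p per pathway list and time among those above background on 3 or more arrays per group, and the 5 genes most like Itgam and Itgb2. Members and lists were chosen with earlier results of these data known. Alternatives were the deposited table, normexp, quantile normalization, no filter or a stricter filter, slide as a block, each slide alone, an intensity trend, 2 groups only, outliers kept, 1 probe per gene, and leaving out arrays.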

Additional observations from a re-analysis of the deposited data

Results flagged for a closer look

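Values that stand apart from the rest of their group were looked for in 66 groups of a member probe with 4 to 10 arrays, and 3 were found; chance alone gives about 1 in 20 such groups. For Itgam probe 2 the array of 10 days replicate 5 read 4.16, while the other 4 of that group lay between 3.91 and 3.97, all within the vehicle range. For Itgal probe 2 the array of 10 days replicate 1 read -3.10, and the others lay between -4.69 and -4.30. For Rap1a probe 1 the array of 48 h replicate 5 read 2.23, and the others lay between 1.82 and 1.86. That array is 1 of the pair whose titles share an ID number.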

How the results depend on the processing

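No member difference passed the threshold under any alternative in limma: 0 of 1471 values were called, and the lowest adjusted p was 0.62, within slide 2. Of 52 member differences (the 22 probes against vehicle at each time, and 8 probes between the times) 12 kept their sign under every alternative and 40 did not. Values of opposite sign numbered 26 within slide 1, 16 within slide 2 and 69 of 832 with 1 array left out, and their cause was not tested beyond the fewer arrays that each of these fits holds. The filter for probes well above background on all 16 arrays gave no value for Itgad or for Icam2 probe 2, and 1 probe per gene gave values for the brightest probes only. No filter, an intensity trend, and fits of 2 groups leave each probe's difference of group means as it is. They could therefore turn no sign, and the same holds for the stricter filter and 1 probe per gene. No paired analysis was possible because the replicate numbers only name the arrays, and the labels pair no samples across groups beyond the ID number that vehicle replicate 2 and 48 h replicate 5 share. Depth is set by signal over background, and it limits Itgad and Icam2 probe 2, which were dim on some arrays. The arrays' slides overlap with the groups, so differences of slide and treatment can be separated only in part.

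In the authors' deposited table the values of opposite sign were, at 48 h, 0.0032 for Itgam probe 1 and 0.041 for Itgal probe 2, the 10 day value was 0.027 for Itgam probe 1, and those of 10 days against 48 h were 0.024 for Itgam probe 1 and 0.029 for Itgam probe 2. With normexp they were, at 48 h, 0.014 for Itgam probe 1 and 0.061 for Itgal probe 2, and the 10 day values were -0.026 for Icam1 probe 2 and -0.018 for Rap1a probe 1. With quantile normalization it was, at 48 h, 0.041 for Itgal probe 2, and those of 10 days against 48 h were 0.023 for Itgam probe 1 and 0.031 for Itgam probe 2. With outlier spots kept it was, at 48 h, 0.047 for Itgam probe 1, and the 10 day value was 0.032 for Itgam probe 1. With slide as a block they were, at 48 h, 0.071 for Itgam probe 1, 0.043 for Itgal probe 1, 0.045 for Itgax probe 1 and 0.047 for Itgax probe 2, and the 10 day value was 0.032 for Itgam probe 1. Within slide 1 they were, at 48 h, 0.0077 for Itgam probe 1, -0.050 for Itgam probe 2, -0.020 for Itgb2 probe 1, 0.030 for Itgal probe 1, 0.55 for Itgal probe 2, 0.22 for Itgax probe 1, 0.14 for Itgax probe 2, 0.72 for Itgad probe 1, 1.21 for Itgad probe 2, 0.051 for Icam1 probe 1, 0.092 for Icam1 probe 2, -0.35 for Icam2 probe 1, -0.33 for Fermt3 probe 1, -0.19 for Rap1a probe 1, -0.047 for Rap1a probe 2, -0.086 for Rap1a probe 3 and 0.079 for Rap1a probe 4. The 10 day values were 0.070 for Itgam probe 1, -0.17 for Itgam probe 2, 0.38 for Itgal probe 2, 0.087 for Icam1 probe 1, -0.37 for Fermt3 probe 1, -0.31 for Rap1a probe 1, -0.11 for Rap1a probe 2 and -0.28 for Rap1a probe 3. That of 10 days against 48 h was 0.063 for Itgam probe 1. Within slide 2 they were, at 48 h, 0.26 for Itgam probe 1, -0.066 for Itgam probe 2, 0.14 for Itgal probe 3, -0.086 for Tln1 probe 1, -0.15 for Tln1 probe 2 and 0.021 for Rap1a probe 4. The 10 day values were 0.091 for Itgb2 probe 1, 0.013 for Itgax probe 1, 0.042 for Itgax probe 2, 0.052 for Icam1 probe 1, 0.18 for Icam2 probe 1, 0.057 for Tln1 probe 1 and -0.27 for Rap1a probe 4. Those of 10 days against 48 h were 0.19 for Itgam probe 2, 2.63 for Itgad probe 1 and 1.17 for Itgad probe 2. The value of Itgad probe 1 rests on 48 h replicate 5, where that probe was not well above background.

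With arrays left out, 1 at a time or the pair with 1 ID number in their titles together, some differences changed sign at least once. At 48 h these ran, for Itgam probe 1 from -0.074 to 0.086, Itgam probe 2 from -0.054 to 0.12, Itgal probe 1 from -0.066 to 0.10, Itgal probe 2 from -0.41 to 0.18, Itgax probe 1 from -0.14 to 0.041, Icam2 probe 1 from -0.13 to 0.18, Fermt3 probe 1 from -0.041 to 0.11, Tln1 probe 1 from -0.027 to 0.070, Tln1 probe 2 from -0.0041 to 0.11, Rap1a probe 1 from -0.11 to 0.076, Rap1a probe 2 from -0.069 to 0.14, Rap1a probe 3 from -0.0011 to 0.20 and Rap1a probe 4 from -0.18 to 0.024. At 10 days they ran, for Itgam probe 1 from -0.078 to 0.071, Itgam probe 2 from -0.048 to 0.086, Itgb2 probe 1 from -0.082 to 0.034, Icam1 probe 1 from -0.069 to 0.041, Icam1 probe 2 from -0.049 to 0.042, Tln1 probe 1 from -0.12 to 0.025, Tln1 probe 2 from -0.031 to 0.072, Rap1a probe 1 from -0.060 to 0.13, Rap1a probe 2 from -0.013 to 0.23, Rap1a probe 3 from -0.091 to 0.14 and Rap1a probe 4 from -0.098 to 0.24. Between the times they ran, for Itgam probe 1 from -0.047 to 0.056 and Itgam probe 2 from -0.077 to 0.073.

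The number of probes called over the whole array, 0 in each comparison in limma, was 1 without a filter on dim probes at 48 h and 1 at 10 days, and 1 at 48 h and 4 in 10 days against 48 h when only the 2 groups were fitted. With arrays left out it ran from 0 to 1 in each comparison; it was 1 without vehicle replicate 1 and without vehicle replicate 5 at 48 h and between the times, and 1 without 10 days replicate 4 at 10 days.

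Correlations with Itgb2 depended on the scaling. In the authors' deposited table Itgam probe 1 gave r = -0.047, Itgal -0.018 and Itgax -0.14, and with quantile normalization Itgal gave -0.018 and Itgax -0.13. The rank correlation of Icam2, which passed at rho = 0.64, was 0.17 and 0.15 under these scalings and 0.46 with group means within slides subtracted, and passed under none of the 3. Fermt3 passed the permutation test at r = 0.71 under both (adjusted p = 0.00995 in the deposited table and 0.00963 with quantile normalization), and Itgam probe 1 passed at r = 0.67 when group means within slides were subtracted (adjusted p = 0.0244). Tln1 probe 1 passed by r under all 4 alternatives, and by rho not in the deposited table or with quantile normalization. With the mean of the CA probes, Itgam probe 1 gave r = 0.52 in the deposited table, which no longer passed (adjusted permutation p = 0.0657). Itgam probe 2 gave -0.51 there and -0.52 with quantile normalization, and Itgb2 gave -0.37 and -0.39; the cause was not tested. Runs of at least 6 or of at least 10 CA units in place of 8, alternatives added after the data were seen, gave 67 and 32 probes; those other than Itgam probe 1 had median levels of 4.69 and 4.98 and median r with Itgam probe 1 of 0.69 and 0.85.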
